A study of Homo sapiens with 12 samples.

Results

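The genes described here are 34 genes of cholesterol and fatty acid synthesis, listed by symbol from knowledge of the pathways, with earlier results of these data known. All 34 were matched to 1 Ensembl identifier each in both deposited count tables, which list 61860 and 62700 genes, and all 34 passed the low-count filter in both experiments. The cells were RT4, an established line from a human bladder tumour, and their RNA was sequenced in 2 experiments with 6 libraries each. In the overexpression experiment, 3 libraries of cells with empty vector stood against 3 of cells with a Flag-ITGB4 plasmid, which encodes a tagged integrin subunit, all grown in McCoy's 5A medium with 10% serum. In the resistance experiment, 3 libraries came from parental cells labelled with PBS and 3 from a cisplatin-resistant line labelled with cisplatin, a DNA-crosslinking platinum compound, all labelled wild type, in MEM with 10% serum and with no dose or time given. The labels do not say whether the resistant line is 1 clone, or whether plasmid uptake was transient or stable, since they name both transfection and infection. A second label of libraries 2 and 3, in both the vector and the plasmid group, names ITGB5 and ITGB6, while all 6 titles name ITGB4. The columns of the parental libraries carry a name that no sample title holds. Reading them as parental is an inference from the table they stand in, beside the resistant columns, and the letters a, b and c name these libraries.

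Cholesterol is built from acetyl-CoA through mevalonate, the isoprenoid units, squalene and lanosterol, and fatty acids are built from the same acetyl-CoA, then elongated and desaturated. Transcription of both pathways is driven by the sterol regulatory element-binding proteins, encoded by SREBF1 and SREBF2. These are held in the endoplasmic reticulum by SCAP and the INSIG proteins when sterols are plentiful, and are carried to the Golgi and cut free when sterols run low. Oxysterols also activate the LXR receptors, which raise transcripts for sterol export, and SREBF1 and SCD are among their known targets.

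Library totals ran from 22701466 to 33352045 counts for overexpression and from 31824582 to 38199946 counts for resistance. ITGB4 stood at 858, 879 and 871 CPM (counts scaled to library size, with TMM factors) in the vector libraries and at 1485, 1379 and 1416 CPM in the plasmid libraries (log2 fold change 0.71, adjusted p = 2.22e-13), and at 602, 598 and 600.3 CPM in parental and 848, 831 and 832 CPM in resistant libraries. Every plasmid and resistant library was above its controls. Reads over exons cannot separate plasmid from endogenous ITGB4. The epithelial and urothelial markers GATA3, FOXA1, KRT7, KRT19 and EPCAM were between 153 and 2947 CPM in all 12 libraries. Of the uroplakins that define mature urothelium, UPK1A reached no more than 0.538 CPM and UPK2 and UPK3A no more than 13.1 CPM. UPK1B was at 54.0 to 55.7 CPM with vector and 144 to 149 CPM with plasmid. In the resistance experiment it was at 68.0 to 72.3 CPM in parental and 26.7 to 29.7 CPM in resistant libraries. UPK2 and UPK3A went the other way, called lower with plasmid (log2 -0.94 and -0.45) and higher in the resistant line (log2 0.68 and 1.62). FOXA1 was at 403 to 413 CPM in parental and 228 to 238 CPM in resistant libraries. Liver, fat and blood markers that could bring lipid genes with them were near 0, with ALB, TTR, ADIPOQ, LEP and PTPRC no higher than 0.0897 CPM. The fibroblast markers COL1A2 and DCN reached no more than 0.0403 and 0.0526 CPM, and the blood markers CD3E and CD68 no more than 0.0788 and 0.158 CPM. Other markers of these kinds moved with the groups. SERPINA1, of liver, was at 0.207 to 0.278 CPM with vector and 1.21 to 1.30 CPM with plasmid, and at 8.17 to 9.79 CPM in parental and 7.09 to 7.41 CPM in resistant libraries. COL1A1, of fibroblasts, was at 3.85 to 4.35, 6.77 to 6.9997, 11.5 to 11.8 and 4.01 to 5.39 CPM in the same order. PLIN1, of fat cells, was at 0.417 to 0.562, 0.766 to 0.942, 0.557 to 0.982 and 0.285 to 0.508 CPM. All 3 were called higher with plasmid and lower in the resistant line. Their part in the results was not tested. In bulk RNA, fewer cells that use a gene and less of its RNA per cell cannot be told apart. No label states that replicates were grown separately, and the p-values therefore cover only the spread among these libraries, which may be technical.

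Promoter sequences are shown for 5 genes on which the results turn: the enzyme and the sterol sensor that changed most with ITGB4 plasmid, the gene pair that moved most in opposite directions between the experiments, and SREBF2, whose window alone holds the sterol core. They come from RefSeq on GRCh38.p14, run from 250 bases before to 50 bases after the annotated start, and are written on the gene's strand. Capitals mark the NF-Y box CCAAT on either strand (ATTGG on the reverse) and the core TCACNCCAC of the sterol regulatory element.
SCD promoter, chr10:100346983-100347282, plus strand: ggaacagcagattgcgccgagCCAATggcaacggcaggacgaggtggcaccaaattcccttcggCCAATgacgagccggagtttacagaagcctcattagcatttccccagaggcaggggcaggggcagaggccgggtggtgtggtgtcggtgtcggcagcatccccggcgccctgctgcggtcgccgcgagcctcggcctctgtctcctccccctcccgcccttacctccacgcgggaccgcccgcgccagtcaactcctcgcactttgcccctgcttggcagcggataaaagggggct
INSIG1 promoter, chr7:155297628-155297927, plus strand: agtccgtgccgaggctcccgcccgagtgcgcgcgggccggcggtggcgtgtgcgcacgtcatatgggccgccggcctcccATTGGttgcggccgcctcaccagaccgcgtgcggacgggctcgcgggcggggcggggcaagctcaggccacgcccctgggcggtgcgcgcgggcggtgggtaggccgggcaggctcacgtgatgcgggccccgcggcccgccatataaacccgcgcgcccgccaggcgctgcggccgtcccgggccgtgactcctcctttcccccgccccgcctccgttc
STARD4 promoter, chr5:111512486-111512785, minus strand: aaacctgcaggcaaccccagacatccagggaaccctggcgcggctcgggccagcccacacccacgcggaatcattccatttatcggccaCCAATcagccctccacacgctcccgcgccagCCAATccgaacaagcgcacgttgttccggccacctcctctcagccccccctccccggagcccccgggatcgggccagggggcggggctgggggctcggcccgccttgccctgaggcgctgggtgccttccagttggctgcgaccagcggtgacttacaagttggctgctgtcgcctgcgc
PMVK promoter, chr1:154936670-154936969, minus strand: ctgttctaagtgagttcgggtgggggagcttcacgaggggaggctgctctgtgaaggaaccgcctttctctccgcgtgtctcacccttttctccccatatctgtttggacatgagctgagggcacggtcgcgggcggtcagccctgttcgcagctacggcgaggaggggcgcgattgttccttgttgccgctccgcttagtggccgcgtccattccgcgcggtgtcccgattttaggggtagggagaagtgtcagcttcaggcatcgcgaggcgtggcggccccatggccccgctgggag
SREBF2 promoter, chr22:41832855-41833154, plus strand: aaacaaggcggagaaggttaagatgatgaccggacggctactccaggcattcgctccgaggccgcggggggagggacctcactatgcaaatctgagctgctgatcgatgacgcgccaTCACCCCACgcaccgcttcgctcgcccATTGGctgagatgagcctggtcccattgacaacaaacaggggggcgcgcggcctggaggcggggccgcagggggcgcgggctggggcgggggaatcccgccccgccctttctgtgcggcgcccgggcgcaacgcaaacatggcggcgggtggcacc

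The table held promoters for 30 of the 34 genes, in 41 windows of 300 bases; SQLE, ACAT2, FDFT1 and FASN have no entry in it. CCAAT, sought on both strands, was in 27 of the 41 windows (65.9%), against 34.6% of all 35116 windows in the table and 34.6% of the 16605 windows of genes tested here. GGGCGG, the GC box, was in 85.4% of the windows, against 44.95% of all windows and 63.7% of those of tested genes. The E-box CACGTG was in 14.6%, against 7.26% and 9.02%. TCACNCCAC was in 1 window, that of SREBF2, where it starts 133 bases before the annotated start, against 1.13% and 1.05%. SCD and STARD4 hold 2 CCAAT boxes each and INSIG1 holds 1 on the reverse strand, whereas PMVK holds none. These are matches of letters in a window, not measured binding sites.

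With ITGB4 plasmid, most of the 34 genes had lower transcript levels, led by SCD, the stearoyl-CoA desaturase that makes monounsaturated fatty acids. A gene is called changed at an adjusted p under 0.05 by edgeR's quasi-likelihood test. Of the 34 genes, 25 were lower and 4 higher, where 35.7% of all 16950 genes tested were called lower and 36.5% higher (72.2% called in either direction). The 18 genes of the mevalonate arm and ring steps held 15 lower and 0 higher, whereas the 10 fatty acid genes held 6 lower and 3 higher. The median log2 fold change of the 34 was -0.34, against 0.0017 over all genes tested. The CPM ranges of the 3 plasmid and 3 vector libraries did not overlap for 30 of the 34, against 74.5% of all genes. A change of over 1.5-fold, tested with edgeR's glmTreat, was called for 8 of the 34 genes, 1 higher and 7 lower, against 22.5% of all genes (11.1% higher and 11.4% lower).

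In the resistant line, PMVK and TM7SF2, a kinase of the mevalonate arm and a sterol reductase, rose, while STARD4 and LSS, a cholesterol carrier and lanosterol synthase, fell. There, 17 of the 34 genes were lower and 4 higher, where 27.7% of all 16875 genes were called lower and 26.8% higher (54.5% in either direction). The median log2 fold change was -0.13, against 0.018 over all genes, and the ranges of the groups did not overlap for 23 of the 34, against 60.8% of all genes. Over 1.5-fold changes were called for 3 genes, 1 higher and 2 lower, against 12.5% of all genes (6.17% higher and 6.31% lower). This split depended on scaling: with library sizes alone, which moved the median of all genes to 0.18, 9 of the 34 were higher and 10 lower, and their median was 0.032. Relative to the median of all genes, the median of the 34 was -0.15 with either scaling. A scaling shifts all genes nearly alike by construction, so this equal value does not show that the decrease is independent of scaling.

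**Figure D1:**
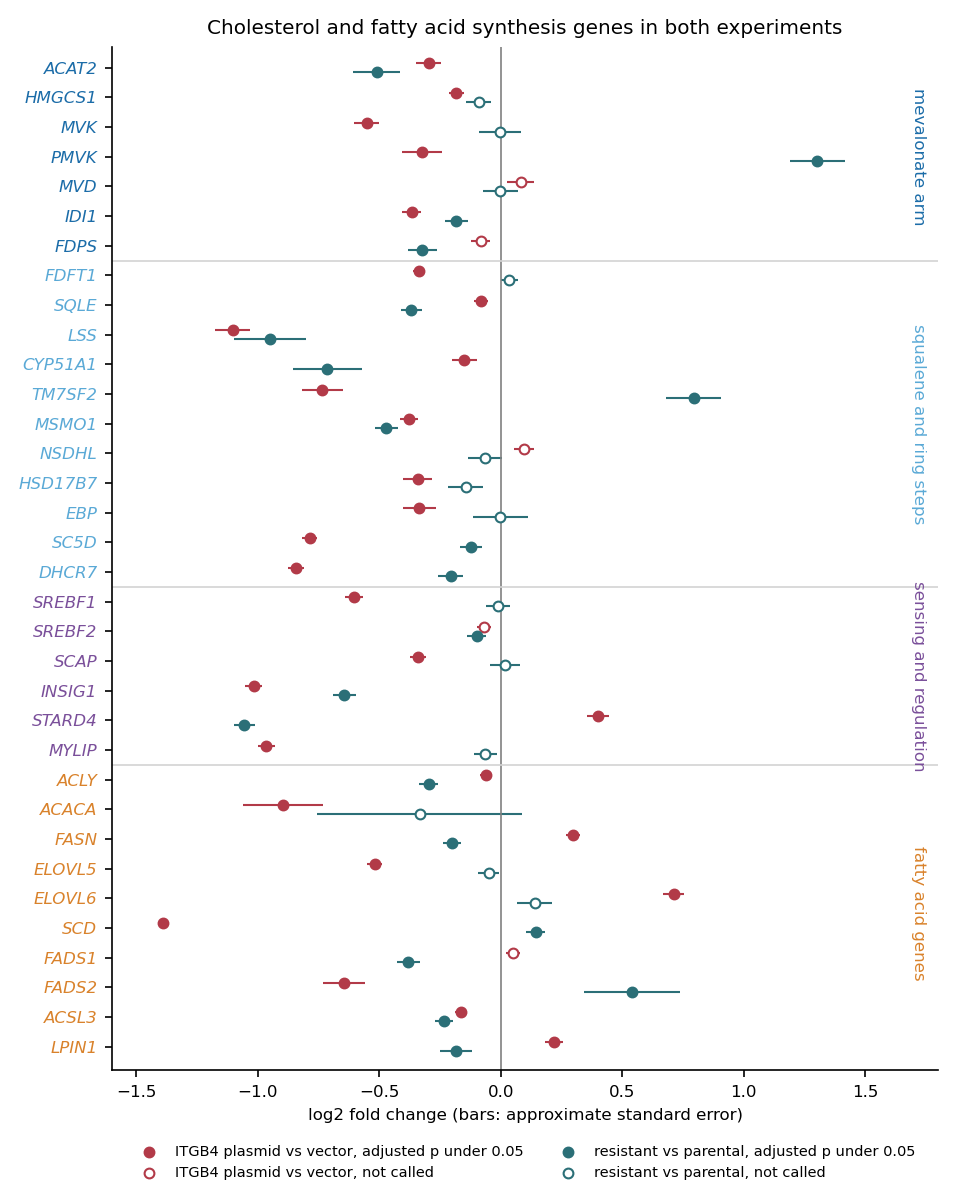
Log2 fold change (x axis) of each of the 34 genes, grouped by role, for ITGB4 plasmid against vector (red) and resistant against parental (green), 3 libraries a group; bars are the approximate standard error and open circles did not pass an adjusted p of 0.05. In each experiment 27 of the 34 points lie left of 0; red points run from -1.39 for SCD to 0.71 for ELOVL6 and green points from -1.05 for STARD4 to 1.30 for PMVK.

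The mevalonate arm, which makes the isoprenoid units, was lower in 5 of 7 genes with ITGB4 plasmid and in none higher, with a median log2 fold change of -0.30. In the resistant line 3 were lower and 1 higher, with a median of -0.09. Of all genes tested, 35.7% were called lower and 36.5% higher with plasmid, and 27.7% and 26.8% in the resistant line. These shares are the background of every role group below as well. MVK, mevalonate kinase, fell most, at 23.9 ± 0.297 CPM with vector and 16.3 ± 0.604 CPM with plasmid (SD, n = 3). Its log2 fold change was -0.55 ± 0.052, with an adjusted p of 5.14e-08. Here ± beside a log2 fold change approximates its standard error, taken as the absolute change over the root of the F value. IDI1, the isomerase that makes the second isoprenoid unit, fell by 0.37 on the log2 scale, and HMGCS1, a synthase of the arm, fell by 0.18. MVD, the decarboxylase, and FDPS, which joins the units into farnesyl diphosphate, were not called, at 0.08 (adjusted p = 0.196) and -0.08 (adjusted p = 0.0579). FDPS was called lower with RLE, upper quartile or no scaling factors, with the filter of 1 CPM in 3 libraries, and without vector library 3 or plasmid library 1, with adjusted p from 0.00216 to 0.0476.

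PMVK, phosphomevalonate kinase, was the member with the largest rise in the resistant line. It lies on chromosome 1 from 154924734 to 154936991 on the minus strand (GRCh38, GENCODE 29), as do all positions below. Its libraries read 6.65, 7.32 and 5.81 CPM in parental cells and 18.1, 15.6 and 15.1 CPM in resistant cells, and no resistant library came near the parental range. That is a 2.47-fold increase, a log2 fold change of 1.30 ± 0.11 (adjusted p = 2.84e-08). In the overexpression experiment the same gene went the other way, from 9.58, 10.9 and 9.82 CPM with vector to 7.40, 8.47 and 8.24 CPM with plasmid (log2 -0.32 ± 0.081, adjusted p = 0.00196). The other members of the arm did not share the rise of PMVK: ACAT2, IDI1 and FDPS were lower in the resistant line, at log2 changes of -0.51, -0.18 and -0.32, and the other 3 were not called. The call of IDI1 was lost with library sizes alone (adjusted p = 0.778) and with upper quartile factors (adjusted p = 0.196).

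ACAT2, the cytosolic thiolase that joins 2 acetyl-CoA molecules, was at 25.4, 22.7 and 21.1 CPM in parental libraries and 18.1, 14.2 and 16.3 CPM in resistant ones (log2 -0.51 ± 0.097, adjusted p = 0.000243). With vector it was at 33.6, 33.9 and 33.1 CPM and with plasmid at 29.03, 28.1 and 25.2 CPM (log2 -0.30 ± 0.051, adjusted p = 5.98e-05). The groups did not overlap in either experiment. Its value is uncertain because 69.7% of its exon bases on chromosome 6 (159760328 to 159779055) also lie in exons of genes on the opposite strand, among them TCP1 and SOD2, and the counting of the overexpression table used no strand option.

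The squalene and ring steps were the group with the highest share of lower genes with ITGB4 plasmid, 10 of 11, and none of the 11 was higher (median log2 -0.34). In the resistant line 6 were lower and 1 higher (median -0.14). LSS, lanosterol synthase, closes the sterol ring and lies on chromosome 21 from 46188141 to 46228824. It stood at 14.3, 15.7 and 15.03 CPM with vector and at 6.9997, 6.89 and 7.05 CPM with plasmid. All 3 plasmid libraries lay far below the lowest vector library. The log2 fold change was -1.10 ± 0.071 (adjusted p = 4.27e-10).

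LSS was also lower in the resistant line, at 6.34, 5.73 and 6.94 CPM against 15.6, 10.2 and 10.9 CPM in parental cells (log2 -0.95 ± 0.15, adjusted p = 3.48e-05). Parental library a was the highest of its group by a wide margin, but the groups did not overlap without it either. The change of LSS did not differ detectably between the experiments (difference -0.18 ± 0.18, adjusted p = 0.42). It was called once parental library a was left out, at -0.37 (adjusted p = 0.021).

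Late enzymes of the pathway fell too. DHCR7, a late sterol reductase, fell from 138, 143 and 141 CPM to 79.8, 75.0 and 80.2 CPM with plasmid (log2 -0.84 ± 0.033, adjusted p = 4.31e-13). SC5D, the sterol desaturase that acts just before it, fell from 181, 174 and 178 CPM to 99.6, 103 and 106 CPM (log2 -0.79 ± 0.031, adjusted p = 4.35e-13). No plasmid library of either gene came near a vector library. Resistant cells had both called lower by small amounts, DHCR7 at -0.21 (adjusted p = 0.00261) and SC5D at -0.12 (adjusted p = 0.0287). Neither call held with library sizes alone, where SC5D read 0.043. Upper quartile factors removed both as well (adjusted p = 0.105 for DHCR7 and 0.79 for SC5D). The call of SC5D was also lost without parental library a, b or c, or without resistant library 2, with adjusted p up to 0.126.

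TM7SF2, a sterol reductase of the inner nuclear membrane and endoplasmic reticulum, changed in opposite directions. With vector it was at 12.2, 12.1 and 12.04 CPM and with plasmid at 8.03, 6.33 and 7.47 CPM (log2 -0.73 ± 0.083, adjusted p = 5.43e-07). Parental libraries were at 8.52, 7.23 and 7.21 CPM and resistant ones at 14.98, 12.7 and 12.2 CPM (log2 0.79 ± 0.11, adjusted p = 1.27e-05). Neither pair of groups overlapped.

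CYP51A1, the lanosterol demethylase, was at 8.40, 11.2 and 10.5 CPM in parental and 5.05, 6.39 and 6.89 CPM in resistant libraries (log2 -0.71 ± 0.14, adjusted p = 0.000339). With plasmid it was lower by only 0.15 on the log2 scale, from 20.04, 19.9 and 19.4 CPM to 17.9, 18.2 and 17.5 CPM (adjusted p = 0.0161). The plasmid call of CYP51A1 was removed by DESeq2 (adjusted p = 0.0746), a fit of all 12 libraries (adjusted p = 0.16) and leaving out plasmid library 3 (adjusted p = 0.0727). Other genes share 86.0% of its exon bases on chromosome 7 (92112151 to 92134803), so this count is uncertain as well.

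Among the other ring genes, MSMO1, the methylsterol oxidase, was lower in both experiments, by 0.38 with plasmid and 0.47 in the resistant line on the log2 scale, with no detectable difference between them (adjusted p = 0.362). SQLE, the epoxidase that feeds LSS, showed -0.37 in the resistant line (adjusted p = 1.06e-06) and -0.08 with plasmid. That second call was lost without vector library 1 or 2 or plasmid library 3, with adjusted p of 0.0639, 0.0607 and 0.122. FDFT1, squalene synthase, was lower with plasmid by 0.34 on the log2 scale, at 676 ± 14.7 against 854 ± 5.06 CPM (SD, n = 3). In resistant cells FDFT1 was not called (log2 0.03), but was called higher with library sizes alone (log2 0.20) and upper quartile factors (log2 0.14). HSD17B7 and EBP, a sterol ketoreductase and a sterol isomerase, were lower with plasmid by 0.34 and 0.33 and were not called in the resistant line. NSDHL, the sterol dehydrogenase next to them in the chain, was called in neither.

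**Figure D2:**
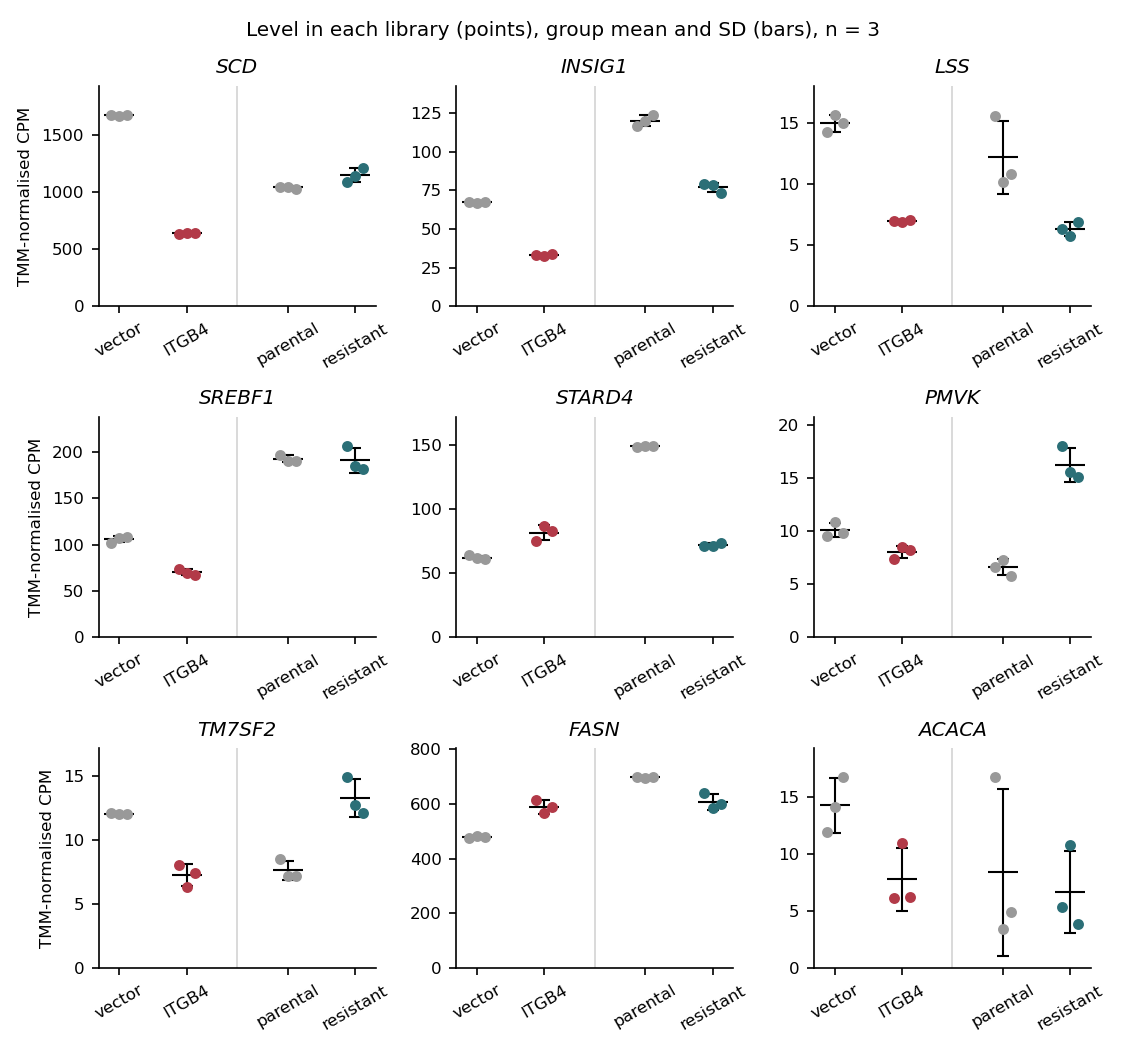
TMM-normalised CPM (y axis, from 0) of 9 genes in each of the 12 libraries (points), with group mean and SD (bars, n = 3), overexpression at left and resistance at right of each panel. The vector and plasmid ranges do not overlap for any of the 9 genes, as for 30 of the 34 genes and 74.5% of all genes. PMVK and TM7SF2 are high in resistant cells and low in plasmid cells, and ACACA spans 3.44 to 16.8 CPM within the parental group.

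Of the 6 sensing and regulatory genes, 4 were lower and 1 higher with ITGB4 plasmid, and 3 lower and none higher in the resistant line, with median log2 changes of -0.47 and -0.08. INSIG1, the endoplasmic reticulum protein that retains SCAP and is itself a target of the sterol regulatory factors, lies on chromosome 7 from 155297776 to 155310235. It was lower with plasmid, going from 67.6, 67.0 and 67.3 CPM to 33.02, 32.8 and 33.96 CPM, a 2.02-fold decrease (log2 -1.02 ± 0.035, adjusted p = 9.69e-14). The resistant line also had less of it, at 79.1, 78.3 and 73.6 CPM against 117, 119.9 and 124 CPM (log2 -0.64 ± 0.048, adjusted p = 4.84e-09). In both cases the spread within each group was a small part of the gap. The decrease was greater with plasmid, by 0.40 ± 0.06 on the log2 scale (adjusted p = 7.3e-06).

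SREBF1 and SREBF2, the transcription factors themselves, parted. SREBF1, on chromosome 17 from 17810399 to 17837002, fell with plasmid from 102, 106.98 and 108 CPM to 73.4, 69.0 and 67.0 CPM (log2 -0.60 ± 0.037, adjusted p = 2.28e-10). Between parental libraries, at 197, 190.2 and 191 CPM, and resistant ones, at 207, 185 and 182 CPM, the ranges overlapped (log2 -0.01 ± 0.049, adjusted p = 0.86). That comparison read 0.15 and was called with library sizes alone. The difference between the experiments was -0.61 ± 0.067 (adjusted p = 9.04e-08).

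SREBF2, on chromosome 22 from 41833079 to 41907308, changed little in either experiment. It read 224, 228 and 220.1 CPM with vector, and 223, 209.9 and 208 CPM with plasmid (log2 -0.07 ± 0.03, adjusted p = 0.0525). In the resistance experiment it read 218, 220.1 and 218 CPM, then 210.5, 201 and 201 CPM (log2 -0.10 ± 0.04, adjusted p = 0.0437). The resistance call is marginal: leaving out parental library a, b or c or resistant library 2 or 3 removed it, with adjusted p of 0.0789 to 0.141, and with library sizes alone the value was 0.065. With plasmid, 5 of the alternatives called it lower (RLE, upper quartile and no scaling factors, the filter of 1 CPM in 3 libraries and limma-voom), with adjusted p from 0.000804 to 0.0454, as did leaving out plasmid library 1. SCAP, the escort protein, was lower with plasmid, at 85.1, 79.7 and 81.2 CPM against 103, 102 and 106 CPM (log2 -0.34 ± 0.033, adjusted p = 8.32e-08). The test did not call it in resistant cells (adjusted p = 0.837), at 84.8, 71.0 and 75.2 CPM against 77.1, 71.6 and 79.4 CPM. SCAP was called higher there with library sizes alone (log2 0.18, adjusted p = 0.0188).

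STARD4, a soluble carrier that moves cholesterol between membranes and lies on chromosome 5 from 111496033 to 111512590, had the largest decrease of the 34 genes in the resistant line. It dropped from 148, 149 and 149 CPM to 70.8, 70.6 and 73.3 CPM, a 2.08-fold decrease (log2 -1.05 ± 0.044, adjusted p = 2.1e-12). The groups lay far apart and replicates close together. With plasmid it rose instead, from 63.6, 61.5 and 60.7 CPM to 75.0, 86.7 and 82.7 CPM (log2 0.40 ± 0.044, adjusted p = 3.79e-07).

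MYLIP, an E3 ubiquitin ligase, lies on chromosome 6 from 16129125 to 16148248. It fell with plasmid from 72.5, 74.3 and 74.2 CPM to 38.1, 36.8 and 38.2 CPM (log2 -0.97 ± 0.035, adjusted p = 1.71e-13). In the resistance experiment it was at 89.9, 87.1 and 88.6 CPM in parental and 81.4, 87.4 and 85.2 CPM in resistant libraries, which overlapped (log2 -0.06 ± 0.048, adjusted p = 0.28).

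Of the 10 fatty acid genes, 6 were lower and 3 higher with ITGB4 plasmid, and 5 lower and 2 higher in the resistant line. The median log2 changes were -0.11 and -0.19. The shares called higher, 30% and 20%, were not above those of all genes, 36.5% and 26.8%. With library sizes alone the resistant counts were 2 lower and 4 higher. SCD lies on chromosome 10 from 100347124 to 100364834. It stood at 1678, 1669 and 1676 CPM with vector and at 636, 641 and 641 CPM with plasmid, a 2.62-fold decrease (log2 -1.39 ± 0.021, adjusted p = 2.05e-18). Replicates of either group were almost level. Resistant cells had slightly more, at 1093, 1144 and 1213 CPM against 1046, 1048 and 1029 CPM (log2 0.14 ± 0.038, adjusted p = 0.00387).

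FASN, fatty acid synthase, ran opposite to SCD in both experiments. It rose with plasmid from 477, 483 and 479 CPM to 616, 565 and 587 CPM (log2 0.30 ± 0.029, adjusted p = 7.43e-08). In resistant libraries it was lower, at 639, 584 and 598 CPM against 698, 695 and 699 CPM (log2 -0.20 ± 0.038, adjusted p = 0.000248), a call that library sizes alone removed (adjusted p = 0.428). ELOVL6, the elongase that extends the products of FASN, had the largest increase with plasmid, from 24.8, 23.3 and 23.6 CPM to 39.3, 40.1 and 38.1 CPM (log2 0.71 ± 0.044, adjusted p = 1.98e-10). In resistant cells ELOVL6 was not called (log2 0.14, adjusted p = 0.107), but was called higher with library sizes alone, upper quartile factors and the fit of all 12 libraries, with adjusted p of 0.00146, 0.00726 and 0.0237. LPIN1, a phosphatidate phosphatase of triglyceride synthesis, rose with plasmid from 41.8, 42.8 and 41.7 CPM to 48.4, 50.3 and 48.4 CPM (log2 0.22 ± 0.036, adjusted p = 4.06e-05). In resistant libraries it was at 30.6, 32.0 and 33.7 CPM against 35.1, 37.1 and 37.4 CPM (log2 -0.19 ± 0.066, adjusted p = 0.0235). Leaving out parental library b or c or resistant library 1 or 2 took that call away, with adjusted p of 0.0689 to 0.0815. Library sizes alone and upper quartile factors also removed it (adjusted p = 0.805 and 0.323).

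ACACA, acetyl-CoA carboxylase 1, makes the malonyl-CoA that FASN uses and lies on chromosome 17 from 37084988 to 37406818. Its libraries disagreed more than those of any other member. It was at 11.9, 14.1 and 16.7 CPM with vector and 6.15, 10.96 and 6.19 CPM with plasmid (log2 -0.90 ± 0.16, adjusted p = 0.00012), and a fit of all 12 libraries did not call it (adjusted p = 0.0656). Parental libraries read 16.8, 3.44 and 4.91 CPM, a 4.88-fold span, and resistant ones 5.32, 10.7 and 3.88 CPM. The resistance comparison gave -0.33 ± 0.42 (adjusted p = 0.533) and turned to 0.67 without parental library a (adjusted p = 0.0976), so it shows no direction. Without that library the difference between the experiments was -1.56 (adjusted p = 0.00389), against -0.58 (adjusted p = 0.408) with it. Outside ACACA, the widest span within a group was 1.56-fold, for FADS2 in parental cells.

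Desaturases other than SCD split. FADS2, which starts the desaturation of essential fatty acids, had the lowest level per kilobase of annotated exon in all 4 groups, a rough measure. It was at 7.72, 7.65 and 7.55 CPM with vector and 5.20, 4.76 and 4.72 CPM with plasmid (log2 -0.65 ± 0.087, adjusted p = 4.51e-06). Resistant cells were called higher, at 4.27, 3.81 and 3.57 CPM against 2.14, 2.53 and 3.34 CPM (log2 0.54 ± 0.2, adjusted p = 0.0281). That call was lost without parental library a or b or resistant library 1 or 2, with adjusted p of 0.0548 to 0.128. FADS1, its neighbour on chromosome 11, which acts later in the same series, was lower in resistant cells by 0.38 on the log2 scale (adjusted p = 1.98e-06) and not called with plasmid. Other genes, FADS1 on the opposite strand among them, share 4.89% of the exon bases of FADS2.

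Of the remaining genes, ELOVL5, an elongase of polyunsaturated fatty acids, was lower with plasmid by 0.52 on the log2 scale (adjusted p = 1.55e-10) and not called in resistant cells, where library sizes alone called it higher (log2 0.11, adjusted p = 0.0399). ACSL3, which activates fatty acids for lipid droplets, was lower in both, at -0.17 and -0.23, the second call being lost with library sizes alone (adjusted p = 0.133). ACLY, the lyase that supplies cytosolic acetyl-CoA, was lower in resistant cells by 0.30 on the log2 scale (adjusted p = 3.86e-06). With plasmid it read -0.06 (adjusted p = 0.045), a call lost when vector library 2 or 3 or plasmid library 2 or 3 was left out, with adjusted p of 0.0868 to 0.211.

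SCD made up a large part of the pooled abundance and of its change. Summed over the 34 genes, the level was 6257 ± 2.43 CPM with vector and 4648 ± 17.0 CPM with plasmid (SD, n = 3), a change of -25.7%. Without SCD the change was -12.5%. The fatty acid genes without SCD changed by -1.18%, from 1971 ± 3.98 to 1948 ± 9.36 CPM, whereas the squalene and ring steps changed by -23.6% and the mevalonate arm by -14.2%. Abundant genes weigh on these sums too. FDFT1 made up 854 of the 1615 CPM of the ring steps with vector. Among the fatty acid genes, FASN rose from 480 to 590 CPM, while ACSL3 fell from 748 to 667 CPM and ELOVL5 from 181 to 126 CPM. In the resistance experiment the sum was 5557 ± 32.9 CPM in parental and 5116 ± 36.0 CPM in resistant cells, a change of -7.95%, and -12.2% without SCD. There the fatty acid genes without SCD changed by -13.9% and the sensing and regulatory genes by -16.5%. All these sums used TMM factors, and none was taken with library sizes alone. In the resistant line that scaling moved the median log2 fold change of all genes from 0.018 to 0.18. It also removed the resistance calls of FASN and ACSL3 (adjusted p = 0.428 and 0.133). The size of the resistance changes, and possibly their sign, therefore depends on scaling, which the SD does not cover.

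**Figure D3:**
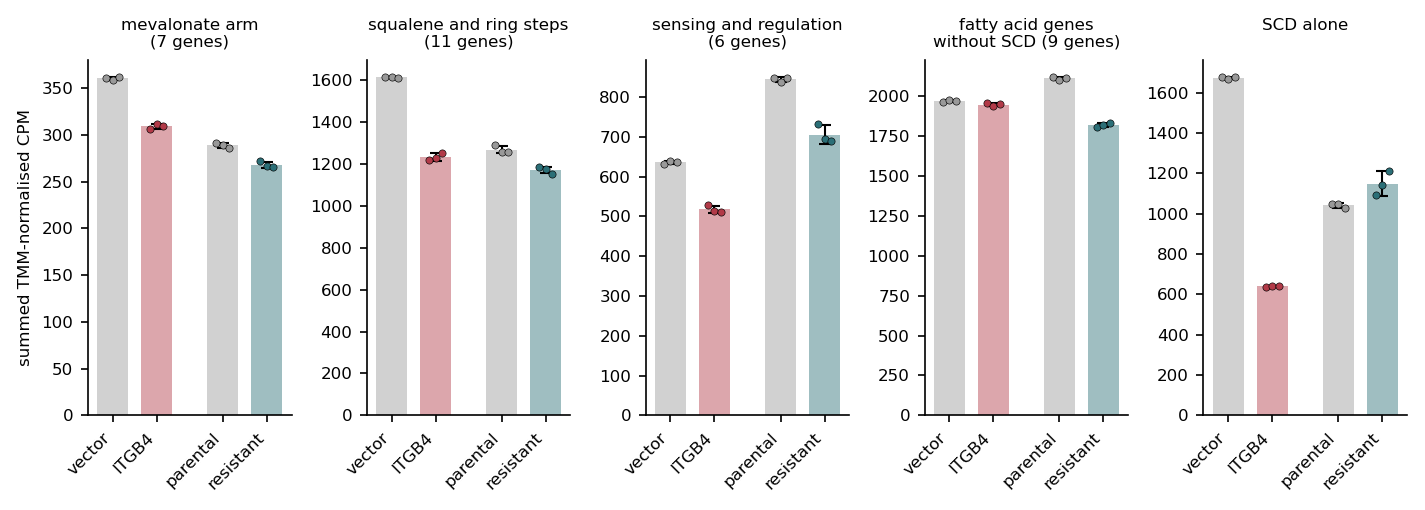
Summed TMM-normalised CPM (y axis, from 0) of the genes of each role in every library (points), with group mean (bar) and SD (error bar, n = 3), and SCD alone at right. SCD drops from 1674 to 640 CPM with plasmid while the other 9 fatty acid genes together stay between 1938 and 1975 CPM across both groups.

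Levels per length, as CPM per kilobase of exon, allow the genes to be ordered against each other. SCD, FDFT1 and ACSL3 held the top 3 places in all 4 groups. With vector, SCD stood at 312 ± 0.866 CPM per kilobase and FDFT1 at 164 ± 0.972. With plasmid, the order of the first pair was reversed, with FDFT1 at 129.9 ± 2.82 and SCD at 119.3 ± 0.521. The gap was larger than the SD of either, but the SD does not cover an error in length. The enzymes of the ring steps were uneven, since LSS was 32nd of 34 in every group, at 2.07 ± 0.0988 CPM per kilobase with vector and 0.965 ± 0.0113 with plasmid, whereas FDFT1 was first or second. ACACA and FADS2 held the last 2 places throughout.

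A joint fit of the 12 libraries asked whether a gene's change differed, taken as the log2 change with plasmid minus that in the resistant line. The experiments also differed in medium and were counted into separate tables, which cannot be told apart from the difference between the treatments. The test called 25 of the 34 genes, 9 with a positive and 16 with a negative difference, where 61.8% of all 18516 genes were called (30.2% positive and 31.6% negative). With library sizes alone FDPS, SQLE and ACLY lost their positive calls (adjusted p = 0.659, 0.145 and 0.526), and HMGCS1, SREBF2 and ACSL3 were called negative (adjusted p = 0.000237, 0.00361 and 0.0194). Differences over 1.5-fold were called for 7 genes, 1 positive and 6 negative, against 31.0% of all genes (15.0% positive and 16.0% negative).

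A total of 7 genes changed in opposite directions, each with a call in both experiments. The share of all genes with opposite calls was not taken, so the count is not set against a background. Over all genes, 36.5% were called higher and 35.7% lower with plasmid, and 26.8% and 27.7% in the resistant line. PMVK, TM7SF2, SCD and FADS2 were lower with plasmid and higher in the resistant line, with differences of -1.65 ± 0.14, -1.55 ± 0.15, -1.55 ± 0.045 and -1.21 ± 0.2. STARD4, FASN and LPIN1 were higher with plasmid and lower in the resistant line, with differences of 1.43 ± 0.063, 0.47 ± 0.05 and 0.38 ± 0.069. All 7 differences had adjusted p no larger than 6.94e-05. With library sizes alone the resistance calls of FASN and LPIN1 were lost, and with upper quartile factors that of LPIN1. Leaving out single libraries removed those of FADS2 and LPIN1.

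The genes lower in both experiments numbered 11, namely ACAT2, IDI1, SQLE, LSS, CYP51A1, MSMO1, SC5D, DHCR7, INSIG1, ACLY and ACSL3. The share of all genes called lower in both was not taken, so this count has no background beside it. With library sizes alone the resistance calls of IDI1, SC5D, DHCR7 and ACSL3 were lost, and with upper quartile factors those of IDI1, SC5D and DHCR7. Leaving out single libraries removed the resistance call of SC5D and the plasmid calls of SQLE, CYP51A1 and ACLY. Of these 11, LSS and INSIG1 changed by more than 0.6 on the log2 scale in both. SQLE, CYP51A1 and ACLY were lowered less with plasmid than in the resistant line (differences of 0.26, 0.54 and 0.21), and IDI1, SC5D, DHCR7 and INSIG1 more (differences of -0.21, -0.69, -0.66 and -0.40), each with a call. Another 10 genes were lower with plasmid and not called in the resistant line, a pattern whose share over all genes was not taken either. For 8 of the 10 the difference itself was called, the others being HMGCS1 (adjusted p = 0.0826) and ACACA (adjusted p = 0.408). The called differences of HSD17B7 and EBP, at -0.22 and -0.36, were lost when some single libraries were left out: 8 for HSD17B7 (vector 1 and 2, plasmid 1, 2 and 3, parental b and c, resistant 2), with adjusted p up to 0.148, and 3 for EBP (vector 1, plasmid 2, resistant 1), with adjusted p up to 0.0616.

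**Figure D4:**
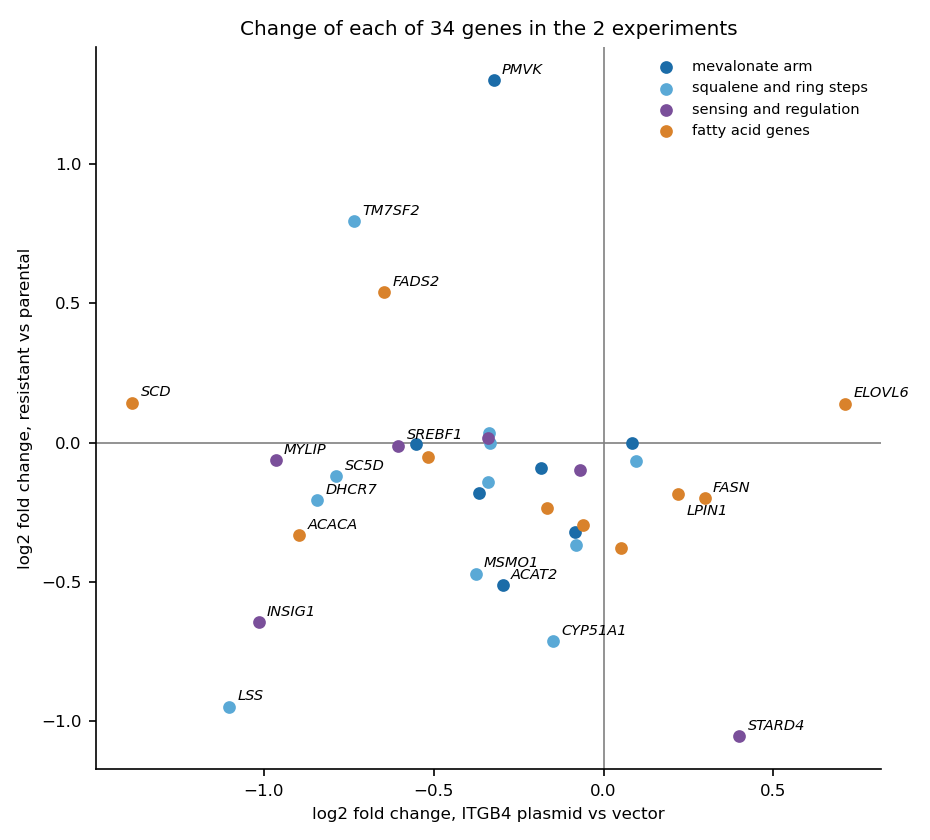
Log2 fold change of each of the 34 genes with ITGB4 plasmid against vector (x axis) and in the resistant against the parental line (y axis), coloured by role. INSIG1 and LSS lie at the lower left, PMVK, TM7SF2, FADS2 and SCD at the upper left, and STARD4 alone far to the lower right, at 0.40 and -1.05.

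Genes around the 2 pathways were followed in 9 lists. Of 96 genes tested with plasmid, 35 were higher and 45 lower, and of 95 tested in the resistant line, 31 were higher and 31 lower. Over all genes, 36.5% were called higher and 35.7% lower with plasmid, and 26.8% and 27.7% in the resistant line, and these shares are the background of every list below. The medians over all lists were -0.07 and 0.05 on the log2 scale. Counts of the resistant line below depend on scaling: with library sizes alone, the genes called higher came to 7 for the processing machinery, 3 for uptake and storage, 4 for isoprenoid branches, 8 for acetyl-CoA and NADPH supply, 6 for other elongases and desaturases and 5 for activation and glycerolipids. Those called lower came to 0 for isoprenoid branches, 1 for acetyl-CoA and NADPH supply and 2 for oxidation.

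In the list of LXR, oxysterol and efflux genes, 4 of 7 tested were lower with plasmid and 2 higher, and 4 of 7 were higher in the resistant line and 1 lower, with medians of -0.57 and 0.38. ABCG1, which exports cholesterol from cells, went from 36.2 ± 1.03 CPM with vector to 2.25 ± 0.515 CPM with plasmid, and from 14.6 ± 0.535 CPM in parental to 30.5 ± 1.38 CPM in resistant cells. Those are log2 changes of -4.03 (adjusted p = 3.41e-16) and 1.06 (adjusted p = 2.78e-09). ABCA1, another cholesterol exporter, fell from 38.4 ± 2.31 to 5.23 ± 0.529 CPM with plasmid and rose from 43.5 ± 0.842 to 67.7 ± 1.93 CPM in the resistant line. LPCAT3, a phospholipid remodelling enzyme, was lower in both, at -0.57 and -0.87. The receptor transcript NR1H3 was higher in both, at 0.46 and 0.38.

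Among the 11 genes of the machinery that processes and holds the sterol regulatory factors, 6 were lower and 3 higher with plasmid, and 4 lower and 3 higher in the resistant line, with medians of -0.12 and -0.01. INSIG2, the relative of INSIG1, rose where INSIG1 fell, from 31.9 ± 0.824 to 58.6 ± 3.95 CPM with plasmid (log2 0.88, adjusted p = 3.48e-11), and was lower in the resistant line (log2 -0.45). MBTPS1, the protease that makes the first cut, was lower with plasmid (log2 -0.55). TMEM97, a sterol-responsive membrane protein, was lower in both, at -0.46 and -0.63, and ERLIN1 in the resistant line, at -0.68.

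Of 10 tested genes of sterol uptake, storage and transport, 5 were higher and 3 lower with plasmid, and 1 higher and 6 lower in the resistant line, with medians of 0.06 and -0.19. SOAT1, which esterifies cholesterol for storage, was at 117.4 ± 0.976 CPM with vector and 116.6 ± 3.502 CPM with plasmid, and fell from 96.3 ± 2.45 to 51.5 ± 1.42 CPM in the resistant line (log2 -0.90, adjusted p = 8.16e-11). NPC1, a lysosomal cholesterol exporter, was higher with plasmid (log2 0.41) and lower in the resistant line (log2 -0.48). NPC2, its soluble partner, was lower with plasmid (log2 -0.58), and LRP8, a lipoprotein receptor, was lower in the resistant line (log2 -0.77).

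Genes of the other isoprenoid branches were higher in 3 and lower in 6 of 11 with plasmid, and higher in 1 and lower in 2 in the resistant line, with medians of -0.13 and -0.01. PDSS2, a subunit of the enzyme that makes the ubiquinone side chain, fell from 32.9 ± 0.848 to 14.99 ± 0.863 CPM with plasmid (log2 -1.13). It did not change detectably in the resistant line, at -0.01 (adjusted p = 0.927). PDSS1, the other subunit, was higher in both, at 0.33 and 0.60. The plasmid call of PDSS1 was lost with DESeq2 (adjusted p = 0.0523), in the fit of all 12 libraries (adjusted p = 0.0699) and without vector library 3 (adjusted p = 0.0675). FNTA, a shared subunit of the prenyltransferases, was higher with plasmid (log2 0.40) and lower in the resistant line (log2 -0.14, adjusted p = 0.0106). Library sizes alone and upper quartile factors removed that second call.

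The supply of acetyl-CoA and NADPH held 5 lower and 2 higher of 11 genes with plasmid, and 3 lower and 4 higher in the resistant line, with medians of -0.17 and 0.03. IDH1 and ME1, cytosolic enzymes that make NADPH, fell with plasmid from 824 ± 7.56 to 458 ± 7.28 CPM and from 141 ± 3.42 to 73.1 ± 1.35 CPM (log2 -0.85 and -0.94). In the resistant line neither was called, at 0.02 and -0.02, with adjusted p of 0.623 and 0.78. ACSS2, which makes acetyl-CoA from acetate, was lower in the resistant line (log2 -0.85). ACACB, the mitochondrial membrane form of the carboxylase, was higher there at log2 1.30, from 0.725 ± 0.0309 to 1.79 ± 0.222 CPM.

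Other elongases and desaturases were lower in 8 of 12 with plasmid and higher in 3, and 3 were higher and 3 lower in the resistant line, with medians of -0.21 and 0.12. HACD2, a dehydratase of fatty acid elongation, fell from 206 ± 2.45 to 74.2 ± 3.59 CPM with plasmid (log2 -1.47, adjusted p = 3.48e-16). ELOVL3 rose from 0.14 ± 0.0764 to 2.44 ± 0.154 CPM. In the resistant line FADS3, another gene of the FADS family, rose from 36.5 ± 1.10 to 104.6 ± 8.62 CPM (log2 1.52). ELOVL7 fell there from 172 ± 2.84 to 69.9 ± 3.03 CPM (log2 -1.30).

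Fatty acid activation and glycerolipid synthesis held 6 higher and 4 lower of 12 genes with plasmid, and 3 higher and 5 lower of 11 in the resistant line, with medians of 0.11 and -0.08. PLIN2, the coat protein of lipid droplets, rose in both experiments, from 226 ± 1.67 to 463 ± 12.4 CPM with plasmid (log2 1.03) and from 515 ± 4.33 to 779 ± 22.6 CPM in the resistant line (log2 0.60). ACSL4, which activates polyunsaturated fatty acids, was higher with plasmid (log2 0.58) and fell in the resistant line from 229 ± 6.93 to 85.3 ± 2.97 CPM (log2 -1.43). ACSL1, another activating enzyme, was lower in both, at -0.69 and -0.36.

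Of 16 fatty acid oxidation genes, 8 fell and 6 rose with plasmid, and 10 rose and 4 fell in the resistant line, with medians of -0.17 and 0.26. With plasmid, the 6 of 16 that rose are near the share over all genes. ACADM, a dehydrogenase of oxidation, was lower with plasmid (log2 -0.72) and higher in the resistant line (log2 0.47). CPT1A, which admits fatty acids to mitochondria, was lower with plasmid (log2 -0.32) and higher in the resistant line (log2 0.70). Among 6 genes of the PPAR and fatty acid binding list, ANGPTL4, a secreted lipase inhibitor, rose from 13.4 ± 0.717 to 82.8 ± 4.93 CPM with plasmid (log2 2.62, adjusted p = 7.73e-17). FABP4, a fatty acid carrier, was lower with plasmid (log2 -0.85) and higher in the resistant line (log2 0.54). PPARD, a nuclear receptor for fatty acids, was higher with plasmid (log2 0.75) and lower in the resistant line (log2 -0.40). In that list 5 were higher and 1 lower with plasmid, and 2 were higher and 3 lower in the resistant line, with medians of 0.41 and -0.03.

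**Figure D5:**
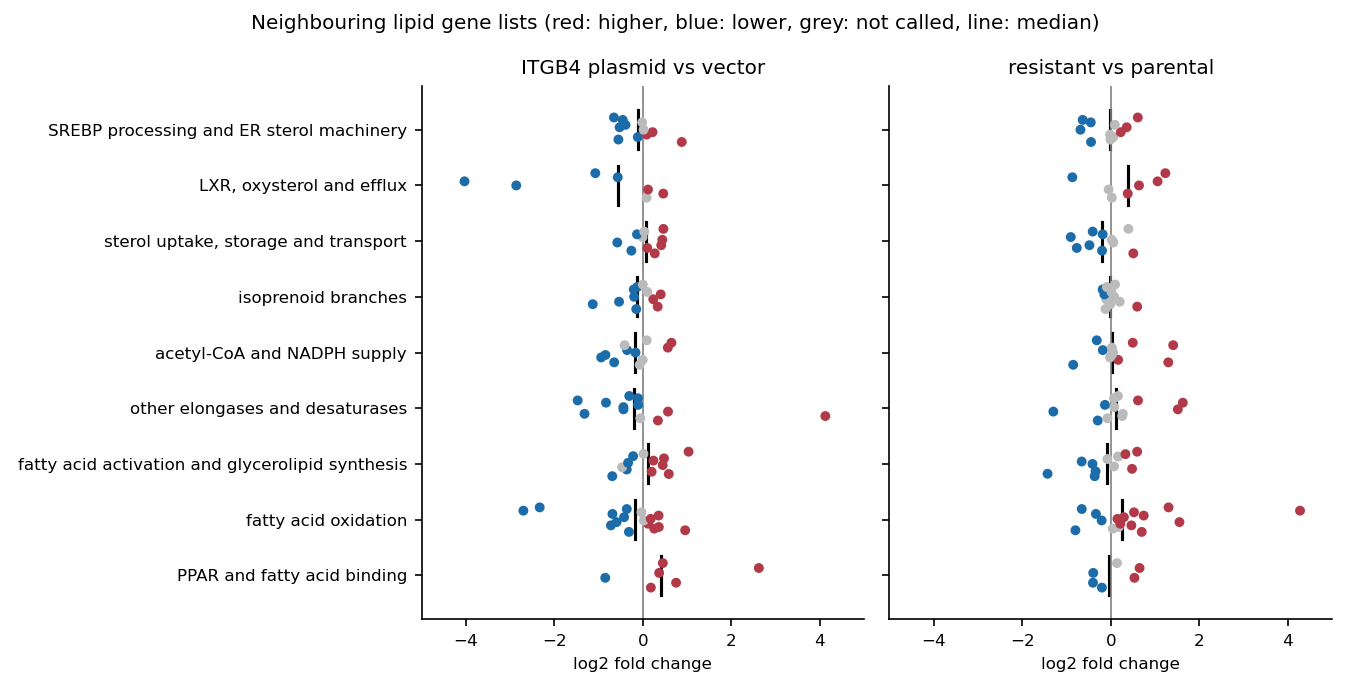
Log2 fold change (x axis) of each tested gene of 9 neighbouring lipid gene lists (rows), with ITGB4 plasmid at left and in the resistant line at right; red points were called higher, blue lower, grey not called, and the black line is the list's median. In the LXR list, ABCG1 lies farthest to the left with plasmid, at -4.03, and at 1.06 in the resistant line.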

How the data were processed

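Strand-marking RNA libraries were made from total RNA, per the labels' protocols. The deposited values are raw counts per gene. Per the file headers, the authors counted the overexpression libraries with featureCounts 2.0.1 over Ensembl release 107, with no strand option; the counting of the resistance table is not given in the sources used here. Per the submitters' processing notes, reads were placed on hg38. Genes passing filterByExpr were tested with TMM factors and edgeR 4.0.16 (R 4.3.3), quasi-likelihood test, p-values being adjusted across every gene of the fit by Benjamini-Hochberg. No column was left out. Vector and plasmid libraries of equal replicate number showed no shared deviation (correlations of deviations -0.039, -0.075 and -0.030). That cannot show that they were unpaired. No replicate pair agreed within counting noise (chi-square per degree of freedom 1.61 to 13.5). Positions are those of GENCODE 29. The 34 genes and the lists were chosen with earlier results of these data known. Library values are given for the 8 largest called changes of each experiment, the regulators and genes of opposite sign. Of each list, the 2 called genes with the smallest p per experiment are named, except some that are not reported here; NR1H3 was added after its values were seen. Alternatives were RLE, upper quartile and no scaling factors, 2 other filters, DESeq2 1.42.0, limma-voom (limma 3.58.1), a fit of all 12 libraries, a test against 1.5-fold, the replicate block, and omission of each library. The procedure was tested on simulated data.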

Additional observations from a re-analysis of the deposited data

How the results depend on the processing

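Requiring a change over 1.5-fold left 1 higher and 7 lower genes with plasmid, 1 higher and 2 lower in the resistant line, and 1 positive and 6 negative differences. With library sizes alone, the median of the 34 genes was -0.38 with plasmid and 0.032 in the resistant line, where 9 were higher and 10 lower and where 67.8% of all calls were higher against 49.1% with TMM. With upper quartile factors the medians were -0.40 and -0.027, and 61.6% of resistance calls were higher. For the difference, library sizes alone gave 37.9% positive calls against 48.8%.

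Signs turned for genes near 0. In the resistant line, library sizes alone gave HMGCS1 0.074, MVK 0.16, MVD 0.16, NSDHL 0.099, HSD17B7 0.021, EBP 0.16, SC5D 0.043, SREBF1 0.15, SREBF2 0.065, MYLIP 0.10, ELOVL5 0.11 and FNTA 0.020. Upper quartile factors gave HMGCS1 0.016, MVK 0.10, MVD 0.10, NSDHL 0.040, EBP 0.10, SREBF1 0.094, SREBF2 0.0064, MYLIP 0.042 and ELOVL5 0.055, and FADS1 -0.014 with plasmid. The filter of at least 1 CPM in 3 libraries gave MVK 0.0100, MVD 0.012, EBP 0.012 and SREBF1 0.0022 in the resistant line, and SREBF2 -0.020 for the difference. The fit of all 12 libraries gave MVK 0.0064, MVD 0.0084 and EBP 0.0078. For the difference, library sizes alone gave MVD -0.12, MSMO1 -0.11, NSDHL -0.041, SREBF2 -0.17, ACSL3 -0.13 and TMEM97 -0.025.

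Leaving out 1 library at a time gave resistance values from -0.87 to 0.67 for ACACA, -0.070 to 0.070 for EBP, -0.055 to 0.032 for MVD, -0.054 to 0.097 for MVK, -0.050 to 0.074 for SCAP and -0.064 to 0.027 for SREBF1. The median of the 34 genes ranged from -0.149 to -0.116, and the difference of SREBF2 from -0.0060 to 0.047. The cause of these changes was not tested, beyond the shift that a scaling makes by construction.

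With the replicate block in the overexpression fit, the call of ACLY was lost (adjusted p = 0.0936) and no other call of the 34 changed; over all genes it called 6105 higher and 5965 lower, against 6185 and 6049. No paired analysis was possible for the resistance experiment because no label ties its parental columns to a replicate number. Overlapping exons limit ACAT2 and CYP51A1.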
